A study of Mus musculus with 9 samples.

Results

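Antigen presentation by the major histocompatibility complex (MHC) was examined in mouse colon RNA through 10 genes chosen by name: the class II chain genes H2-Aa, H2-Ab1 and H2-Eb1, their helpers H2-DMa, Cd74 and Ciita, and the class I genes H2-K1, H2-D1, B2m and Tap1. All 10 were found among the 21498 gene symbols of the files, and all 10 were among the 15278 genes tested. RNA-seq was performed on 9 colorectal samples from male mice of ICR, an outbred stock, 5 weeks old at the start, with 3 biological replicates in each of 3 groups. The Control group received no azoxymethane (AOM), no dextran sulfate sodium (DSS) and no antibody, and its tissue is labelled normal mucosa. Both other groups received 1 injection of the carcinogen AOM (10 mg/kg) and drank DSS, an agent that injures the gut lining, in 3 cycles (7 days at 2% in the first and 5 days at 1.5% in the later ones), and their tissue is labelled adenocarcinoma. The IgG group was given a negative control IgG antibody and the anti-S100a9 group a neutralizing antibody to S100a9, a calcium-binding protein of neutrophils and monocytes, both at 1.5 mg/kg intravenously during the DSS cycles. AOM/DSS mice were sampled at the end of week 18, and the same week is listed for the Control mice. The study's text calls the anti-S100a9 tissue colon mucosa, so how much tumor each sample held is not known from the labels. The Control group lacked AOM, DSS and antibody at once, and these cannot be told apart in any comparison with it.

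The values are FPKM, fragments counted per transcript length and per library size, which sum to between 308377 and 408811 per sample. Epithelial markers were present in every sample (Krt8 at 722 to 1266 FPKM, Epcam at 584 to 890 FPKM). S100a9 was at 0.370 to 0.859 FPKM in Control, 63.1 to 267 FPKM in IgG and 5.54 to 11.6 FPKM in anti-S100a9 samples. Smooth muscle markers stood apart in IgG replicates 1 and 2, in which the 6 genes summed to 518 and 1087 FPKM against 1801 to 4074 FPKM in the other samples. Some values cannot be taken at face value: Gapdh and Ppia, used by every cell, were at 0.156 to 0.755 and 0.173 to 0.974 FPKM, and Irf8 was listed at 0 in all 9 samples.

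MHC class II molecules carry peptides from engulfed material to CD4+ T cells. In the mouse H2-Aa and H2-Ab1 encode the chains of one class II molecule, H2-A, and H2-Eb1 the beta chain of the other, H2-E; Cd74 encodes the invariant chain that guards the groove, H2-DM exchanges its remnant for peptide, and Ciita encodes the transactivator that switches the class II genes on, mainly in B cells, dendritic cells and macrophages, and under interferon gamma in epithelium. MHC class I molecules, built from a heavy chain such as H2-K or H2-D with beta-2 microglobulin (B2m), are found on nearly all cells and show peptides from inside the cell, pumped in by the Tap1 and Tap2 transporter, to CD8+ T cells.

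Of the 10 genes 7 (H2-K1, H2-DMa, Tap1, H2-Ab1, H2-Aa, H2-Eb1 and H2-D1, in that order) lie between positions 33996017 and 35267499 of chromosome 17 (GRCm38, GENCODE M21), the region of the mouse MHC. Class II genes share an upstream module in which an X box, read by the RFX factors, precedes a Y box, read by NF-Y, and to which Ciita is recruited. The promoter table of RefSeq (GRCm38.p6, the reference strain and not ICR) held 7 of the 10 genes and not H2-Ab1, Cd74 or Ciita. A simple form of the module, CAAC followed by ATTGG with 28 to 33 bases from start to start, was searched on both strands of the 250 bases before each gene's start. It was found for H2-Aa and H2-Eb1 and for 5 of 8 class II chain, H2-DM and H2-DO genes in the table, H2-Eb2, H2-Oa and H2-Ob being the others, and in 0.785% of all 32851 windows. The stretches before H2-Aa, H2-Eb1, H2-Eb2 and H2-Ob are shown because they hold the pair, with CAAC and ATTGG in capitals. That before H2-Oa overlaps an annotated exon of the gene and is not printed.
H2-Aa (chr17:34287859-34287915, minus strand): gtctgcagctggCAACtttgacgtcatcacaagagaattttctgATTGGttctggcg
H2-Eb1 (chr17:34305765-34305820, plus strand): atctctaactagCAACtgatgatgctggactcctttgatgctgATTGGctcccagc
H2-Eb2 (chr17:34325532-34325587, plus strand): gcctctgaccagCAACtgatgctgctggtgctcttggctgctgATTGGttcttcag
H2-Ob (chr17:34238807-34238860, plus strand): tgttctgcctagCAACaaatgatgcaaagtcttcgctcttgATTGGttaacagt
H2-K1 and H2-D1 do not hold this pair but GGATTCC, the core of the NF-kB site of class I enhancers, which 3.17% of all windows hold on either strand. It is shown in capitals within 30 bases, 29 of which are identical between these 2 genes. GENCODE places the stretch before H2-D1 inside an exon of a longer H2-D1 transcript.
H2-K1 (chr17:34000433-34000462, minus strand): ggctggGGATTCCccatctccacagtttca
H2-D1 (chr17:35262919-35262948, plus strand): ggctggGGATTCCccatctcctcagtttca
These matches are a description of the reference sequence. No binding was measured, and near-identical stretches of this kind between MHC genes also mean that reads can be shared or lost among paralogs, and in outbred mice among alleles, so levels of single H2 genes are uncertain to that extent.

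By mean FPKM over the 9 samples, the order of the levels was B2m (865), Cd74 (637), H2-D1 (449.7), H2-K1 (241), H2-Ab1 (149), H2-Aa (98.1), H2-Eb1 (71.5), H2-DMa (23.5), Tap1 (17.7) and Ciita (5.36). H2-D1 was above H2-K1, H2-Ab1 above H2-Aa and Tap1 above Ciita in 9 of 9 samples. The order of the other neighbours was not kept in every sample: Cd74 was above H2-D1, H2-Eb1 above H2-DMa and H2-DMa above Tap1 in only 6 of 9. Thus, invariant chain RNA was far above the RNA of the class II chains it escorts, and the transactivator Ciita was the lowest member.

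H2-Aa (chr17:34282744-34287823), the alpha chain of H2-A, was at 107, 41.0 and 217 FPKM in Control replicates 1 to 3, at 21.6, 83.7 and 27.1 FPKM in IgG and at 149, 77.9 and 158 FPKM in anti-S100a9. IgG replicates 1 and 3 were the lowest samples, and Control replicate 3 was the highest. All 3 groups overlapped.

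H2-Ab1 (chr17:34257689-34269419), the beta chain of H2-A, was at 142, 84.1 and 303 FPKM in Control, 54.4, 194 and 43.6 FPKM in IgG and 200.5, 107 and 208 FPKM in anti-S100a9. The same samples were high and low as for H2-Aa, and the Pearson correlation of the log2 values of these genes over the 9 samples was 0.958. Given as a description, this correlation covers samples that share groups.

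H2-Eb1 (chr17:34305867-34316674), the beta chain of H2-E, was at 125, 5.20 and 199 FPKM in Control, 2.32, 10.6 and 31.7 FPKM in IgG and 106, 52.0 and 112 FPKM in anti-S100a9. It had the widest range of the members, 85.8-fold from IgG replicate 1 to Control replicate 3, and it was the only member for which any pair of groups did not overlap: every anti-S100a9 sample was above every IgG sample. Control replicate 2 was within the IgG range.

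Cd74, on chromosome 18, was at 742, 434 and 1352 FPKM in Control, 232, 877 and 157 FPKM in IgG and 735, 405 and 796 FPKM in anti-S100a9. H2-DMa, a chain of the peptide editor H2-DM, was at 23.6, 17.7 and 45.4 FPKM in Control, 8.96, 35.6 and 9.78 FPKM in IgG and 26.0, 14.6 and 29.6 FPKM in anti-S100a9. For both genes, IgG replicate 2 was higher than 2 of the 3 Control samples and than all 3 anti-S100a9 samples, whereas the other IgG samples were lowest of all.

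Ciita (chr16:10480059-10528418) was at 7.41, 2.14 and 5.95 FPKM in Control, 1.17, 5.96 and 0.402 FPKM in IgG and 11.1, 3.90 and 10.2 FPKM in anti-S100a9, a 27.6-fold range. Its highest samples were anti-S100a9 replicates 1 and 3, both above all Control and IgG samples, and anti-S100a9 replicate 2 was inside the range of the other groups.

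Among class I genes, H2-K1 was at 94.5, 195 and 483 FPKM in Control, 145, 333 and 91.9 FPKM in IgG and 242, 229 and 355 FPKM in anti-S100a9. H2-D1 was at 234, 415 and 585 FPKM in Control, 372, 775 and 246 FPKM in IgG and 457, 430 and 535 FPKM in anti-S100a9. Control replicate 1, which was in the middle of its group or highest for the class II genes, was the lowest Control sample for both heavy chains.

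B2m (chr2:122147686-122153083) was at 862, 816 and 924 FPKM in Control, 455, 1284 and 490 FPKM in IgG and 948, 845 and 1162 FPKM in anti-S100a9. Tap1 was at 15.0, 12.6 and 19.5 FPKM in Control, 10.7, 36.4 and 13.7 FPKM in IgG and 14.5, 12.7 and 24.2 FPKM in anti-S100a9. For both genes IgG replicate 2 was the highest of the 9 samples and IgG replicate 1 the lowest, so the IgG group held both ends of the range. The mean of B2m was 867 ± 54.0 FPKM in Control, 743 ± 469 FPKM in IgG and 985 ± 162 FPKM in anti-S100a9 (SD, n = 3).

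**Figure D1:**
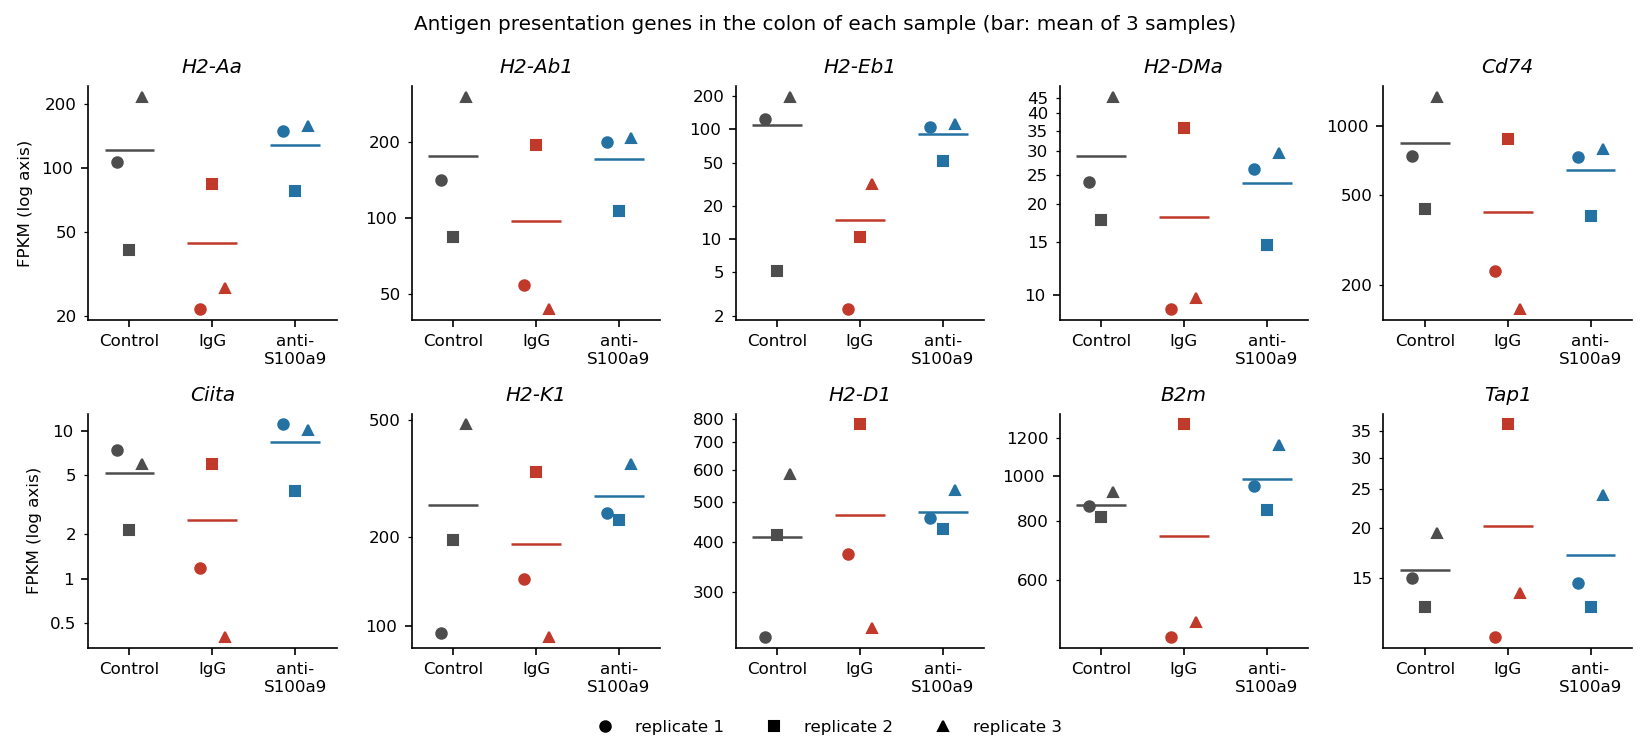
FPKM of each of the 10 genes on a log axis, with 1 point per sample, the marker shape giving the replicate number, and a bar at the mean of the 3 samples of the group. IgG replicate 2 (square) sits above the other IgG samples for 9 of 10 genes, anti-S100a9 replicate 2 is lowest in its group for all 10, and only H2-Eb1 has no overlap between IgG and anti-S100a9.

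Which antigen presentation genes differed in the AOM/DSS colon was addressed by IgG against Control. No member passed an adjusted p of 0.05 (limma on log2(FPKM + 0.1), Benjamini-Hochberg over all 15278 genes), where 11.2% of all genes did. At an unadjusted p under 0.05 the count was also 0 of 10, where 29.5% of all genes passed, and by the thresholds the study used (this p together with a change above 2-fold) it was 0 of 10 where 13.6% did. No member was without overlap between the groups, where 31% of all genes were. By estimate, 8 of the 10 genes were lower in IgG; in bulk RNA fewer cells of a type cannot be told apart from less RNA per cell. The 6 class II genes had the largest differences, H2-Eb1 with a log2 fold change of -2.45 (95% interval -5.49 to 0.60), Ciita with -1.57 (-3.54 to 0.39), H2-Aa with -1.42 (-2.93 to 0.08), Cd74 with -1.25 (-2.73 to 0.22), H2-Ab1 with -0.99 (-2.40 to 0.42) and H2-DMa with -0.86 (-2.12 to 0.40). H2-K1 and B2m were at -0.34 and -0.39, and H2-D1 and Tap1 at 0.11 and 0.18, with intervals that all reached across 0. The median over the members was -0.93 on the log2 scale beside 0.09 over all genes tested. The adjusted p-values from limma ranged from 0.191 for H2-Aa to 0.895 for H2-D1.

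The effect of S100a9 blockade in AOM/DSS mice was addressed by anti-S100a9 against IgG. Again 0 of 10 members passed an adjusted p of 0.05, where 21.1% of all genes did, 6.72% higher and 14.4% lower. Ciita was higher by 2.30 (95% interval 0.34 to 4.26) on the log2 scale, with an adjusted p from limma of 0.0864, and H2-Aa by 1.74 (0.23 to 3.24), with an adjusted p of 0.0898. H2-Eb1 was higher by 3.19 (0.14 to 6.24), with an adjusted p of 0.115, the interval spanning nearly no difference to a very large one. These were the 3 members with an unadjusted p under 0.05, where 39.1% of all genes had one, and all 3 met the study's thresholds as higher in anti-S100a9, where 7.64% of all genes did. H2-Ab1 (1.09), Cd74 (0.96), H2-K1 (0.72), H2-DMa (0.61), B2m (0.57) and H2-D1 (0.19) had positive estimates, and Tap1 was at -0.09. The last sign depends on the scaling, since Tap1 was at 0.03 after scaling to the same total and at 0.05 after quantile normalization. The median over the members was 0.84 beside -0.06 over all genes. H2-Eb1 was the 1 member of 10 with all anti-S100a9 samples above all IgG samples, a pattern that 18.5% of all genes tested had.

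The anti-S100a9 group and the Control group did not differ in any member past the adjusted threshold either, where 0.0131% of all genes did. At an unadjusted p under 0.05 it was also 0 of 10, where 16% of all genes passed, by the study's thresholds 0 of 10, where 3.15% did, and 0 of 10 were without overlap, where 31% were. The estimates ran from -0.29 for Cd74 (95% interval -1.77 to 1.18) to 0.74 for H2-Eb1 (-2.31 to 3.79), with a median of 0.24 beside 0.04 over all genes. The adjusted p-values from limma were 0.684 or more. The intervals were wide: for H2-Ab1, with an estimate of 0.10, they still allowed values from -1.32 to 1.51. The comparison shares its Control samples with the first and its anti-S100a9 samples with the second.

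**Figure D2:**
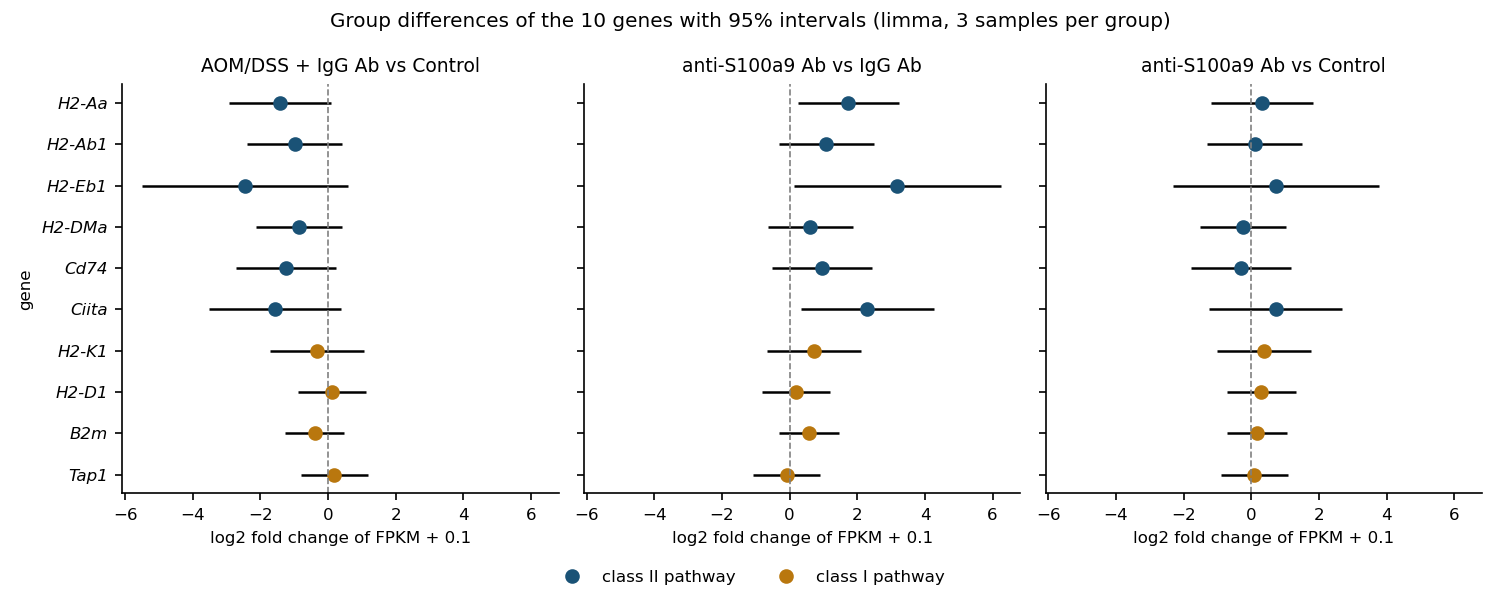
Log2 fold change of FPKM + 0.1 for the 10 genes in the 3 comparisons (points, blue for class II and orange for class I genes) with 95% intervals from limma (lines, 3 samples per group). In IgG against Control all intervals reach across 0, and in anti-S100a9 against IgG those of H2-Aa, H2-Eb1 and Ciita do not, with adjusted p-values between 0.0864 and 0.115.

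The spread between replicates was wide. The residual SD was 2.00 for H2-Eb1, 1.27 for Ciita, 0.98 for H2-Aa, 0.94 for Cd74 and 0.91 for H2-Ab1 on the log2 scale, against a median of 0.32 over all genes. It was 0.89 for the class I gene H2-K1 and 0.82 for the class II helper H2-DMa, and smaller for the class I genes Tap1 (0.63), H2-D1 (0.63) and B2m (0.50), but 75.5% of all genes had a lower SD than even B2m, and 99% a lower SD than H2-Eb1. Within the Control group Control replicate 2 was lowest for 8 of 10 members and replicate 3 highest for 9, within IgG replicate 2 was highest for 9, and within anti-S100a9 replicate 2 was lowest for 10.

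Leaving out IgG replicate 2 changed more calls of members than leaving out any other sample. Without it, 3 members fell in IgG against Control, Cd74 with a log2 fold change of -1.99 (adjusted p from limma 0.0365), Ciita with -2.55 (0.0412) and H2-DMa with -1.50 (0.0498), where 5.18% of all genes fell. In anti-S100a9 against IgG without it, 5 members rose, Ciita by 3.27 (0.0156), B2m by 1.05 (0.0264), H2-Aa by 2.33 (0.0339), H2-Ab1 by 1.75 (0.0439) and Cd74 by 1.69 (0.0457), where 8.93% of all genes rose. Nothing in the labels sets this sample apart, and these are values for 2 IgG samples. IgG replicate 2 was the highest IgG sample for 9 of 10 members, so leaving it out had to lower their IgG means. The shares of all genes are therefore not a like measure, and no conclusion is drawn from these counts. H2-Eb1, in which IgG replicate 2 was low like IgG replicate 1, did not pass in either comparison without it. H2-Eb1 passed in anti-S100a9 against IgG only without Control replicate 2 (adjusted p from limma 0.0392) and in a fit of the 2 groups alone (0.0493).

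The samples with high class II levels also had high levels of B cell, T cell and general leukocyte markers. The 7 B cell markers (Ms4a1, Cd79a, Cd79b, Pax5, Blk, Cr2 and Fcer2a) summed to 26.2 to 226 FPKM in Control with a median of 124, to 9.35 to 105.5 FPKM in IgG with a median of 12.45, and to 49.3 to 196 FPKM in anti-S100a9 with a median of 189. Control replicate 2 and anti-S100a9 replicate 2 were lowest in their groups for all 7 markers, and IgG replicate 2 was highest in its group for all 7. Cd79a, a signalling chain of the B cell receptor, was at 46.3, 11.7 and 89.8 FPKM in Control, 3.95, 40.1 and 5.53 FPKM in IgG and 61.8, 22 and 68.6 FPKM in anti-S100a9. Its partner Cd79b ranged from 2.22 to 85.2 FPKM over the same samples. None of the 7 was listed at 0 in any sample. In limma 0 of 7 passed the adjusted threshold in any comparison, where 11.2%, 21.1% and 0.0131% of all genes did, in the order reported above. In anti-S100a9 against IgG 5 of 7 had an unadjusted p under 0.05, where 39.1% of all genes had one. All 5 were higher, as were 2278 of the 15278 genes tested at this p. Without IgG replicate 2, 3 of 7 fell in IgG against Control, where 5.18% of all genes fell, and 6 of 7 rose in anti-S100a9 against IgG, where 8.93% rose. IgG replicate 2 was highest in its group for all 7, so leaving it out had to lower their IgG means. The shares of all genes are therefore not a like measure, and no conclusion is drawn from these counts. The part of these cells in the values of the MHC genes was not tested.

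The 8 T cell markers summed to 54.0, 11.8 and 79.5 FPKM in Control, 28.3, 44.7 and 11.9 FPKM in IgG and 61.5, 34.1 and 64.0 FPKM in anti-S100a9. The 4 general leukocyte markers, among them Cd52 at 48.8 to 333 FPKM and Coro1a at 17.9 to 121 FPKM, summed to 341, 106 and 546 FPKM, 99.9, 364 and 111 FPKM, and 356, 160 and 397 FPKM. In both lists, as among the B cell markers, replicate 2 was the lowest sample in Control and in anti-S100a9 and the highest in IgG. Of the T cell markers only Cd4 rose, by 2.26 in anti-S100a9 against IgG (adjusted p from limma 0.0157), where 6.72% of all genes rose, and it ran from 2.21 to 23 FPKM over the 9 samples. Its adjusted p from limma was 0.0519 without anti-S100a9 replicate 2 and 0.0534 without anti-S100a9 replicate 3. Lck, a T cell kinase, was at 1.87 to 14.9 FPKM. No leukocyte marker passed in any comparison, where 11.2%, 21.1% and 0.0131% of all genes did, in the order reported above.

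Markers of macrophages were mixed, while the dendritic cell markers, by their sum, placed replicate 2 as the lists above did. The 11 macrophage markers found summed to 746 to 1646, 732 to 1298 and 1147 to 1436 FPKM in Control, IgG and anti-S100a9. In limma 0 of 11 passed in any comparison, where 11.2%, 21.1% and 0.0131% of all genes did, in the order reported above. At an unadjusted p under 0.05 it was 1 of 11 in each, where 29.5%, 39.1% and 16% of all genes passed. All anti-S100a9 samples were above all IgG samples for 3 of 11, where 18.5% of all genes had this pattern. The complement gene C1qa was at 98.6 to 235 FPKM over the 9 samples and was highest in IgG replicate 3, where H2-Ab1 and Ciita were lowest, whereas Lyz2, at 262 to 881 FPKM, was at 397 FPKM in that sample and Adgre1 at 4.16 FPKM, next to its lowest value. The 9 dendritic cell markers summed to 25.5, 15.0 and 27.9 FPKM in Control, 11.7, 28.9 and 8.79 FPKM in IgG and 27.2, 15.2 and 26.5 FPKM in anti-S100a9. By this sum, as in the B cell, T cell and leukocyte lists, replicate 2 was lowest in Control and in anti-S100a9 and highest in IgG. Single markers were not uniform: Control replicate 2 was the highest Control sample for Zbtb46 (0.754 FPKM) and Cd209a (1.95 FPKM). The chemokine receptor Ccr7 was at 1.18 to 11.1 FPKM and Itgax, the integrin CD11c, at 2.19 to 5.18 FPKM. Of the 9 only Ly75 passed, higher in anti-S100a9 than in IgG (adjusted p from limma 0.0394), where 6.72% of all genes were higher. Its call ended in 6 of the 19 alternatives run (adjusted p from limma up to 0.11). IgG replicate 3 had the lowest dendritic cell sum and IgG replicate 2 the highest.

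The likeness to the class II core, the mean log2 value of H2-Aa, H2-Ab1, H2-Eb1 and Cd74, was described by Pearson correlations over the 9 samples, which share groups. H2-Eb1 weighed most in this mean, with a residual SD of 2.00 against 0.91 to 0.98 for the others. Its own correlations were 0.569 with Cd74, 0.645 with H2-Ab1 and 0.828 with H2-Aa. The correlations with the core ran from 0.880 to 0.972 for the 7 B cell markers, from 0.863 to 0.930 for the 4 leukocyte markers and from 0.521 to 0.957 for 7 T cell markers, with Cd2 the highest. They ran from 0.325 to 0.891 for 6 dendritic cell markers and from -0.156 to 0.912 for the 11 macrophage markers, in which Lyz2 was at 0.912, Csf1r at 0.723 and C1qa at 0.463.

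The 4 plasma cell markers found, among them Jchain at 298 to 2578 FPKM and Mzb1 at 17.6 to 90.6 FPKM, held no gene that passed in any comparison. Of all genes 11.2%, 21.1% and 0.0131% passed, in the order reported above. Neutrophil markers passed for 4 of 6 in IgG against Control, all higher, where 8.18% of all genes were higher, and for 3 of 6 in anti-S100a9 against IgG, all lower, where 14.4% were lower. S100a9, the target of the antibody, and S100a8 passed in both. Ly6g, the neutrophil marker with the highest mean level, at 26.1 to 150 FPKM, was the 1 of 6 with the opposite sign. Its estimates were -0.74 and 0.94, without passing. Fat cell markers passed for 3 of 4 tested in IgG against Control, all lower, where 3.01% of all genes were lower. These were Adipoq, Plin1 and Cfd, the last at 30.7 to 133 FPKM in Control and 0 to 12.4 FPKM in IgG, while Fabp4, at 39.5 to 108 and 9.64 to 37.7 FPKM, did not pass. Epithelial markers passed for 2 of 10 in IgG against Control, lower, where 3.01% of all genes were, and for 2 of 10 in anti-S100a9 against IgG, higher, where 6.72% were. Of the 6 smooth muscle markers, led in level by Tagln at 164 to 1287 FPKM and Acta2 at 146 to 899 FPKM, 1 passed. It was higher in anti-S100a9 than in IgG, where 6.72% of all genes were higher. The part of any of these cell types in the MHC values was not tested.

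**Figure D3:**
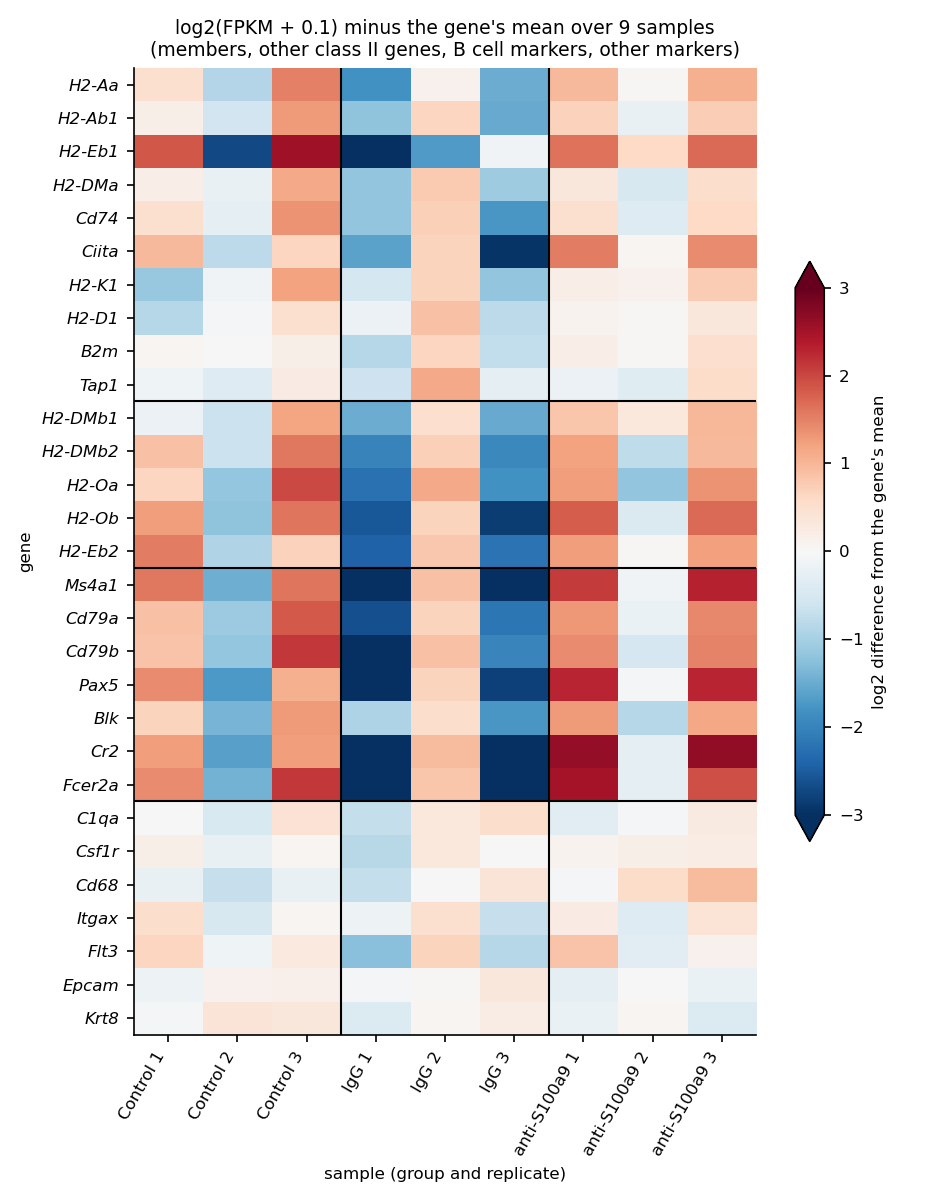
Log2(FPKM + 0.1) minus each gene's mean over 9 samples (color, from -3 to 3) for the 10 members, 5 other class II genes, the 7 B cell markers and 7 markers of macrophages, dendritic cells and epithelium (rows) in the 9 samples (columns). Class II genes and B cell markers are blue in Control replicate 2 and in IgG replicates 1 and 3 and mostly red in IgG replicate 2, apart from H2-Eb1, while C1qa and Epcam vary little by comparison.

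Ratios of genes within a sample were compared next, because they do not depend on the scaling of the sample. H2-Aa stayed between 0.397 and 0.762 of H2-Ab1, a 1.92-fold range. It was at 0.488, 0.397 and 0.431 in Control replicate 2 and IgG replicates 1 and 2, and at 0.621 to 0.762 in the other samples. H2-Eb1 split the same samples far more widely: it was at 0.883, 0.0619 and 0.656 of H2-Ab1 in Control, 0.0426, 0.0543 and 0.726 in IgG and 0.527, 0.487 and 0.541 in anti-S100a9. The ratio was below 0.1 in Control replicate 2 and IgG replicates 1 and 2 and above 0.4 in the other 6 samples, with no sample between, so both AOM/DSS and untreated mice were in the low set. H2-Eb2, a neighbor of H2-Eb1 that encodes a related beta chain, was at 1.27, 0.375 and 4.42 FPKM in these 3 samples, the second value being the lowest of all 9 samples. Its ratio to H2-Ab1 was 0.0151, 0.00688 and 0.0227 in them and 0.0104 to 0.0517 in the other 6, so that these ranges overlapped. Without the low samples the IgG group would hold 1 sample, so the difference of H2-Eb1 between groups cannot be told apart from which mice fell into each group.

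A second split concerned the class Ib gene H2-T23, which encodes Qa-1, a ligand of inhibitory receptors on natural killer cells. H2-T23 was at 36.3, 4.40 and 4.76 FPKM in Control, 2.42, 56.8 and 3.74 FPKM in IgG and 41.0, 6.71 and 5.84 FPKM in anti-S100a9. Relative to H2-Q4, another class Ib gene, it was at 0.485, 0.545 and 0.635 in Control replicate 1, IgG replicate 2 and anti-S100a9 replicate 1 and at 0.0494 to 0.114 in the remaining samples. There was 1 high sample in each group, and of these only IgG replicate 2 was also in the low set of H2-Eb1. H2-T22 had the same high samples (8.70, 12.8 and 7.20 FPKM against 1.18 to 3.06 FPKM). The heavy chains H2-K1 and H2-D1 showed no such gap, with ratios from 0.373 to 0.826. The mice were outbred and MHC genes are polymorphic, but no genotype was available here, and the part of alleles was not tested.

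**Figure D4:**
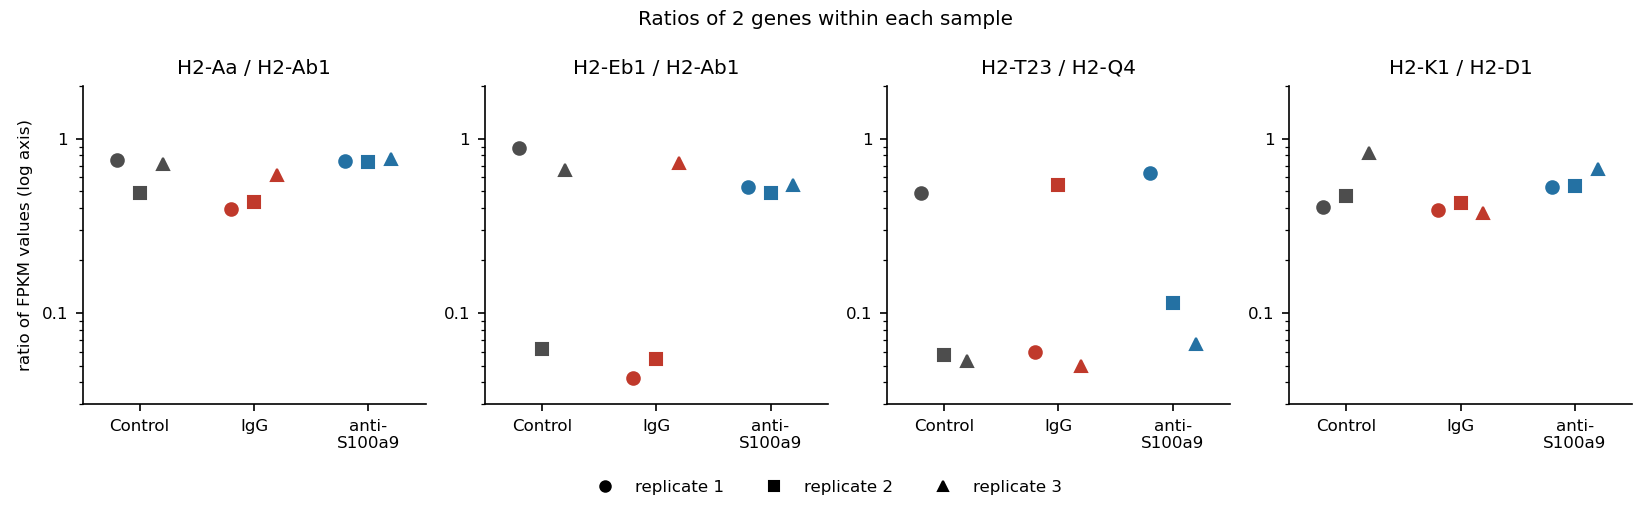
Ratio of the FPKM values of 2 genes within each sample on a log axis, with 1 point per sample and marker shape for the replicate number. The ratio of H2-Eb1 to H2-Ab1 is below 0.1 in 3 samples and that of H2-T23 to H2-Q4 is above 0.4 in 3 samples, 1 in each group. H2-Aa to H2-Ab1 is at 0.397 to 0.488 in the 3 samples low for H2-Eb1 and at 0.621 to 0.762 in the others. H2-K1 to H2-D1 forms a single range.

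Of the 13 ratios computed, 2 set a group apart. H2-DMb1, which encodes a beta chain of H2-DM, was at 0.303, 0.292 and 0.408 of H2-DMa in Control, 0.316, 0.325 and 0.285 in IgG and 0.554, 0.691 and 0.547 in anti-S100a9, so that all 3 anti-S100a9 samples were above the other 6. Tap1 was at 0.0234, 0.0284 and 0.0280 of B2m in IgG, above Control (0.0155 to 0.0211) and anti-S100a9 (0.0150 to 0.0208). Both were picked out after the ratios had been seen and are given without a test. H2-DMb1 itself was higher by 1.54 on the log2 scale in anti-S100a9 than in IgG, with an adjusted p from limma of 0.0978, and by 0.59 than in Control, with an adjusted p of 0.633.

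The other genes of the class II pathway were examined as a list of 17, 13 of which were found and tested. In IgG against Control 0 rose and 1 fell, where 3.01% of all genes fell. The gene was Rfxank, a subunit of the RFX complex that reads the X box, by 0.67 (95% interval -1.04 to -0.30, adjusted p from limma 0.0336). It was at 8.69, 9.67 and 9.04 FPKM in Control and 6.01, 6.03 and 5.14 FPKM in IgG, without overlap. The call was lost in 10 of the 19 alternatives run, among them the fit of these groups alone (adjusted p from limma 0.0839) and leaving out Control replicate 2 (0.122), with values from 0.0107 to 0.122 over all 19. Its partners Rfx5 and Rfxap had estimates of 0.42 and 0.10. The class II genes proper had lower estimates that did not pass, H2-Ob with -2.13, H2-Eb2 with -1.72, H2-DMb2 with -1.69 and H2-Oa with -1.46, H2-Oa and H2-Ob forming H2-DO, which restrains H2-DM in B cells. In anti-S100a9 against IgG 0 of 13 passed in limma, where 21.1% of all genes did, and 5 had an unadjusted p under 0.05, where 39.1% did. Of these 5, 4 had positive estimates, H2-Ob with 2.61, H2-Eb2 with 2.11, H2-DMb1 with 1.54 and Ctss with 0.86. H2-Oa, with an estimate of 1.45, was not among them. The lysosomal proteases ran otherwise: Lgmn, Ctsl and Ctsh were higher in IgG than in Control by 0.89, 0.53 and 0.52, without passing, whereas Ctss, the main invariant chain protease of presenting cells, was at -0.87 with an adjusted p of 0.114.

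Of 13 other class I pathway genes found, 0 passed in IgG against Control in limma, where 11.2% of all genes did. An unadjusted p under 0.05 was reached by 1 of 13, where 29.5% of all genes did, and the estimates stayed between -0.35 and 0.45. In anti-S100a9 against IgG 1 of 13 fell, where 14.4% of all genes did: Psme1, a subunit of the proteasome activator PA28, by 0.61 (-0.99 to -0.23, adjusted p from limma 0.0361), from 74.4, 85.9 and 77.7 FPKM to 48.2, 51.2 and 56.4 FPKM. The transporter and loading genes Tap2 and Tapbp were at 0.11 and -0.07, the immunoproteasome genes Psmb8 and Psmb9 at 0.33 and 0.21, and Nlrc5, the class I transactivator, at 0.82, none past the threshold. Psmb9 and Nlrc5 were, like Tap1, highest or next to highest in IgG replicate 2 (29.5 and 3.63 FPKM).

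Among 15 class Ib and MHC-like genes tested of 18 found, 1 of 15 fell in anti-S100a9 against IgG, where 14.4% of all genes did: Cd1d1, which presents lipids to natural killer T cells, by 0.69 (-1.13 to -0.25, adjusted p from limma 0.0387). In IgG against Control 0 passed, where 11.2% of all genes did, and in anti-S100a9 against Control 0, where 0.0131% did. Neither Psme1 nor Cd1d1 passed after median-of-ratios scaling, and of the 19 alternatives 11 ended the call of Psme1 (adjusted p from limma up to 0.118) and 10 that of Cd1d1 (up to 0.122). H2-Q1 and H2-Q2 were lower in IgG than in Control by estimates of -2.14 and -1.36, with adjusted p-values of 0.0645 and 0.0876.

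Interferon gamma, which induces Ciita and the class I genes, was at the edge of detection: Ifng was listed at 0 in 3 samples and reached 0.526 FPKM in IgG replicate 2. Of 9 genes of its axis tested, 0 passed in IgG against Control, where 11.2% of all genes did. In anti-S100a9 against IgG 1 of 9 rose and 1 fell, where 6.72% of all genes rose and 14.4% fell. These counts do not set the list apart from all genes. Jak1, a kinase of the receptor, rose by 0.54 (adjusted p from limma 0.0486), while the receptor chain Ifngr2 fell by 0.49 (0.0368). The calls were lost in 11 and 10 of the 19 alternatives, with adjusted p-values from limma of up to 0.156 and 0.127. Irf1, a factor downstream, had an estimate of 0.48 in this comparison. For the 6 costimulation genes 0 passed in limma in any comparison, where 11.2%, 21.1% and 0.0131% of all genes did, in the order reported above. An unadjusted p under 0.05 was reached by 2, in anti-S100a9 against IgG, where 39.1% of all genes had such a p. Both were higher in anti-S100a9, as were 2278 of the 15278 genes tested at this p. In anti-S100a9 against Control no gene of these lists passed, where 0.0131% of all genes did.

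**Figure D5:**
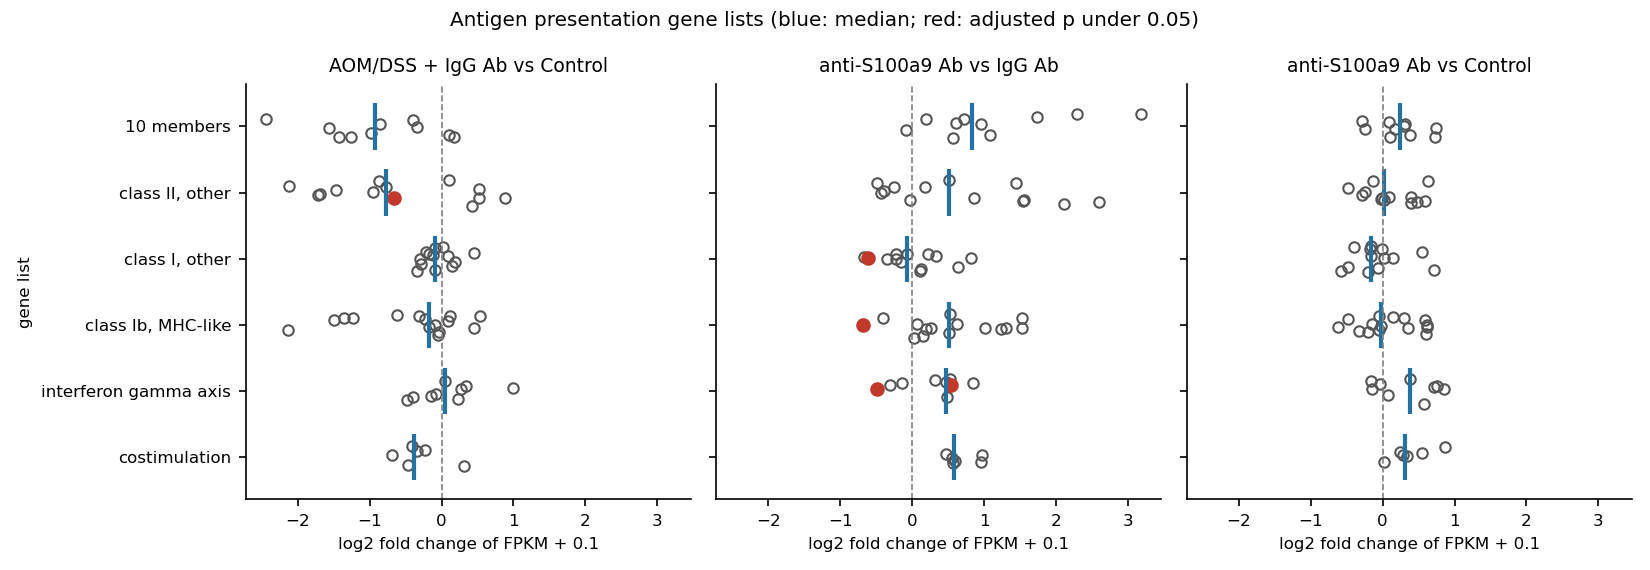
Log2 fold change of FPKM + 0.1 for the genes of the 10 members and 5 wider lists in the 3 comparisons, with 1 point per gene, red where the adjusted p was under 0.05, and a blue bar at the median. Red points are Rfxank in the first panel, and Psme1, Cd1d1, Ifngr2 and Jak1 in the second, and the third has none.

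The genes whose pattern was most like that of the class II core were sought among 13063 genes over the 9 samples. The 8 closest were Coro7 (Pearson r = 0.983), Trim7 (0.980), Tspan10 (0.979), Gimap7 (0.977), Cd37 (0.976), Grk6 (0.975), Il16 (0.975) and Gimap6 (0.973). Cd37, a tetraspanin of B cells, was at 40.5, 8.72 and 77.3 FPKM in Control, 4.72, 35.5 and 8.03 FPKM in IgG and 55.4, 17.0 and 62.8 FPKM in anti-S100a9, with the same high and low samples as H2-Ab1. By the same measure H2-Ob, H2-DMb2 and H2-Oa were at 0.940, 0.931 and 0.919. With 9 samples and so many genes, these correlations describe likeness in this set of samples.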

How the data were processed

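The authors deposited 1 file per sample with FPKM values for 21544 gene rows; the unit is stated in no source used here and was read from the values. The submitters' processing notes name TopHat, Cufflinks, HTSeq, DESeq and GRCm38, without versions. Depth is unknown, since no counts were given, so no counting error was computed, and precision comes from 3 samples per group. The 46 repeated symbols were summed. Genes reaching 0.1 FPKM in 3 or more samples were tested on log2(FPKM + 0.1), whose fold changes understate those of low genes, with limma 3.58.1 (R 4.3.3; all 9 samples, intensity trend, checked on simulated data), two-sided, with Benjamini-Hochberg adjustment. The members and lists were chosen with earlier results of these data known. Named genes were all members, listed pathway genes, list genes past the threshold, the 2 highest genes of each marker list and the 8 genes most like the class II core; others were chosen after their values were seen. Alternatives covered thresholds, groups fitted, replicate block, pseudocount, filter, scaling, trend and leaving out each sample; marker counts without IgG replicate 2 and the alternatives for other listed genes past the threshold were added after seeing the data. Some listed genes are not reported here. No 2 files held the same values. Figures were drawn with matplotlib 3.10.9 (Python 3.11.15).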

Additional observations from a re-analysis of the deposited data

How the results depend on the processing

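The count of members past the threshold was 0 in anti-S100a9 against Control under every alternative run. In IgG against Control it was also 0, except that leaving out 1 replicate at a time gave 0 to 3. The count of 3 came without IgG replicate 2, where 14.3% of all genes passed. In anti-S100a9 against IgG the count of members was 0 in the reported fit, where 21.1% of all genes passed. It was 3 with the study's thresholds, all higher (7.64% of all genes), and 1 with only the 2 groups compared (20.2%). It was 0 to 5 when 1 replicate was left out, 5 without IgG replicate 2 (22.8%) and 1 without Control replicate 2 (15.4%). IgG replicate 2 was the highest IgG sample for 9 of 10 members, so the counts without it follow in part from that choice. Of the other class II, class I and class Ib genes, 13, 13 and 15 were tested. Their count in IgG against Control was 1 as reported (11.2% of all genes) and 3 with the study's thresholds (13.6%). It was 2 with the replicate block (11.1%) and 0 with only the 2 groups compared (3.95%). It was 0 to 6 when 1 replicate was left out, with 6 without IgG replicate 2, where 14.3% of all genes passed. In anti-S100a9 against IgG it was 2 as reported (21.1% of all genes) and 5 with the study's thresholds, all higher (7.64%). It was 4 with the replicate block (22%), 0 after scaling to the same total (13.7%) and 0 after median-of-ratios scaling (19%). Without the intensity trend it was 1 (18.9%). It was 0 to 9 when 1 replicate was left out, with 9 without IgG replicate 2, where 22.8% of all genes passed. The cause of these changes was not tested.

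The labels do not say whether samples with the same replicate number were paired. Correlations of deviations of same-numbered samples ran from -0.187 to 0.249, which cannot settle this with 3 samples per group. The replicate block changed no call of a member.

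All signs that turned were of differences that had not passed the threshold. Tap1 in anti-S100a9 against IgG turned from -0.087 to 0.027 after scaling to the same total and 0.054 after quantile normalization. With 1 replicate left out at a time, the log2 differences that turned in at least 1 case ranged, in anti-S100a9 against Control, from -0.695 to 0.124 for Cd74, from -0.313 to 0.888 for H2-Aa, from -0.335 to 0.59 for H2-Ab1, from -0.062 to 0.6 for H2-D1, from -0.545 to 0.133 for H2-DMa, from -0.889 to 1.726 for H2-Eb1, from -0.187 to 0.99 for H2-K1 and from -0.185 to 0.277 for Tap1. In anti-S100a9 against IgG they ranged from -0.186 to 0.641 for H2-D1 and from -0.441 to 0.44 for Tap1, and in IgG against Control from -0.344 to 0.483 for H2-D1, from -0.903 to 0.273 for H2-K1 and from -0.35 to 0.532 for Tap1. Median-of-ratios scaling moved the median of all genes in IgG against Control from 0.09 to -0.01, and scaling to the same total moved it to 0.18, while the median over the members stayed between -1.03 and -0.84 under the scalings run. Depth, which would set the error of low genes such as Ciita, is unknown.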
